A study of Rattus norvegicus with 20 samples.

Results

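Cyclic stretch of rat alveolar epithelial monolayers in drug vehicle alone was compared with rest in the same vehicle. The comparison used 10 of the 20 libraries of the study, the stretched (S) and unstretched (NS) groups without inhibitor, with 5 libraries each, and it paired the S and the NS library that carried the same animal number. Type II pneumocytes had been isolated from Sprague-Dawley rats and kept for 4 days on silastic membranes coated with fibronectin, on which they spread into monolayers resembling type I cells. NS monolayers received 0.01% DMSO for 24 h. S monolayers received 0.01% DMSO for 18 h and were then stretched for 6 h, each cycle enlarging the surface area by 25% at a rate of 15 per min. Each library was made from RNA pooled over 4 technical replicate monolayers of 1 animal, so that p-values measure the spread between animals. No knockout, transgene or added cytokine distinguished the groups, and no age or sex of the rats is given. The other 10 libraries held the same 2 conditions with 1 µM GSK2606414, an inhibitor of the stress kinase PERK, from the same animals. They entered only where named.

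The alveolar surface is lined by thin type I cells, across which gas is exchanged, and by cuboidal type II cells, which secrete surfactant and replace lost type I cells. Breathing stretches both, and ventilation with large volumes strains them further. Epithelial cells sense stretch through adhesions, junctions, ion channels and the cytoskeleton, and their early response runs through short-lived transcription factors, released growth factors and cytokines. Stretched alveolar cells are also known to rearrange actin and tight junctions and to lose barrier function.

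Libraries held 999209 to 3131541 counts assigned to genes, and a count of 3, used here as the detection floor, equalled 1.07 to 3.05 CPM (counts per 1000000 counts of the TMM-scaled library). Floors cover counting error only. Of 17337 genes in the table, 12816 had a count in these 10 libraries and 7778 had enough to be tested. A gene is called risen or fallen where the paired edgeR quasi-likelihood test, adjusted over all 7778 genes by the Benjamini-Hochberg method, gave p below 0.05. A log2 change is S minus NS, with the standard error of the fit over 5 pairs. Where the 10 values of a gene are given, each group runs in the order of animals 1 to 5. Means in CPM carry the SD over the 5 libraries of a group. Animals 4 and 5 had the lowest summed levels of type I cell markers in both groups, and the values without each animal are given where a call changed.

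Stretch moved about as many genes up as down. Of the 7778 tested genes 1048 passed, which was 13.5%, with 531 rises (6.83%) and 517 falls (6.65%). The 5 S and the 5 NS values did not overlap at all in 582 genes (7.48%). Of the rises 194 reached 2-fold, and of the falls 266 did. The median change over all tested genes was -0.01 and the median of the absolute changes of called genes was 0.95 on the log2 scale. Falls were more frequent than rises among weakly expressed genes and rises among strongly expressed ones. When genes were split into 4 classes of equal number by mean level, in the lowest class, 4.67 to 17.8 CPM, 66 genes rose and 153 fell, whereas in the highest class, up to 22733.8 CPM, 173 rose and 82 fell. In 4 of 5 animals the S library had a higher detection floor in CPM than the NS library, and the part of depth in this pattern was not tested. The split between rises and falls depended on the scaling of the libraries. It was 426 rises to 675 falls with upper-quartile scaling and 346 to 761 with library size alone, which moved the median of all genes to -0.12. The medians of gene lists given below move by about that shift under the same setting.

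**Figure D1:**
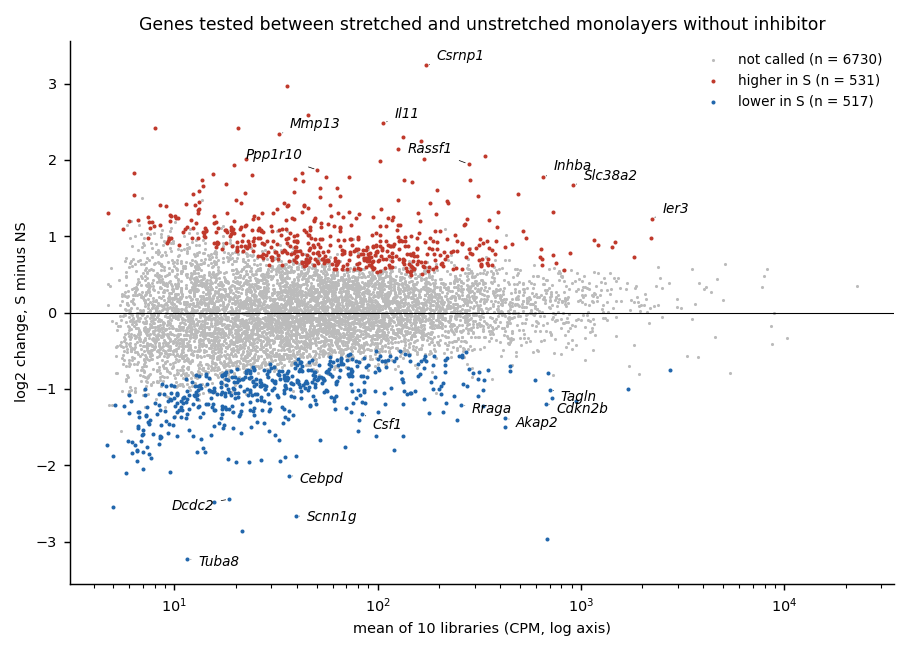
The log2 change between stretched and unstretched monolayers (vertical axis, S minus NS) is plotted against the mean level over the 10 libraries in CPM (horizontal log axis) for the 7778 tested genes. Red points are the 531 genes that rose, blue points the 517 that fell, and grey points were not called.

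Over all tested genes, the log2 differences of 2 animals correlated at 0.29 (animals 2 and 5) to 0.60 (animals 2 and 3, Pearson). Most called genes moved 1 way in all animals, which their selection by the paired test on these same differences favours. Of the 531 rises, 494 were higher in S in 5 of 5 animals, and of the 517 falls, 486 were lower in 5 of 5, beside 2146 genes (27.6%) that moved 1 way in all 5 animals among the tested ones. The size of the response differed. Animal 1 had the largest median change of the called genes, 1.09 for rises and -1.31 for falls, and animal 4 the smallest, 0.68 and -0.74. The number of calls differed with the animal that was left out. It was 947 without animal 1, 659 without animal 2, 460 without animal 3, 698 without animal 4 and 596 without animal 5, and no called gene had the opposite sign in any of these fits. In the libraries with inhibitor, which came from the same animals but were not used in the test, 1036 of 1040 called genes (99.6%) had the same direction, against 80.5% of all genes tested in both.

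Several of the largest rises were nuclear regulators and membrane proteins. The scaffold Rassf1, a tumour suppressor that binds microtubules and the Hippo kinases, was at 51.1, 144, 144, 119 and 96.2 CPM in NS and 353, 782, 624, 246 and 238 CPM in S (log2 change 1.95 ± 0.24, edgeR adjusted p = 0.000612). All S libraries stood above all NS libraries. Ppp1r10, which anchors protein phosphatase 1 to chromatin and to elongating RNA polymerase II, was at 19.05, 16.2, 22.1, 26.6 and 21.1 CPM in NS and 77.6, 103, 119, 60.1 and 40.6 CPM in S (log2 change 1.87 ± 0.26, edgeR adjusted p = 0.00110), again without overlap. The histone methyltransferase Suv39h1, which marks silent chromatin, rose 3.52-fold (log2 change 1.82 ± 0.31, edgeR adjusted p = 0.00372), from 6.96 ± 2.85 to 23.99 ± 5.36 CPM. The adhesion molecule Pcdh18, a protocadherin, rose by 1.94 ± 0.31 and the transporter Slc35e4, whose cargo is not established, by 1.75 ± 0.22, both without overlap between the groups. Nppb, which encodes a natriuretic peptide released by stretched heart muscle, rose by 1.83 ± 0.40, and its groups overlapped: it was at 15.8, 3.93, 12.3, 19.5 and 31.9 CPM in NS and 192, 21.4, 51.3, 35.6 and 38.6 CPM in S, with animal 1 far above the others after stretch. Emp1, a membrane protein of the peripheral myelin protein family, rose from 131 ± 27.9 to 544 ± 118 CPM (log2 change 2.05 ± 0.20, edgeR adjusted p = 0.000127).

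Among the largest falls stood genes of the cytoskeleton, of nuclear regulation and of ion transport. Bcl3, a nuclear cofactor of NF-kB from the IkB family, was at 15.3, 44.2, 57.6, 51.4 and 42.7 CPM in NS and 3.02, 19.7, 15.5, 10.2 and 7.72 CPM in S (log2 change -1.93 ± 0.25, edgeR adjusted p = 0.000677). Every animal fell, and the ranges overlapped only because animal 1 started low. Nav2, a protein of growing microtubule ends, was at 111, 94.3, 57.6, 55.5 and 75.7 CPM in NS and 15.1, 28.6, 24.7, 18.3 and 37.3 CPM in S (log2 change -1.68 ± 0.25, edgeR adjusted p = 0.00178), with no overlap. The interferon-inducible receptor chaperone Rtp4 fell by 1.92 ± 0.26 and Jrk, a nuclear DNA-binding protein derived from a transposase, by 1.89 ± 0.26. Pik3ip1, which restrains PI3 kinase, fell by 1.82 ± 0.44, a call lost without animal 2 or 3 (edgeR adjusted p = 0.0530 and 0.0567), and the growth arrest gene Gadd45g by 1.62 ± 0.19, from 202 ± 74.8 to 62.6 ± 14.6 CPM. Atp12a, a proton and potassium pump of epithelia, was at 31.6, 21.1, 38.6, 5.91 and 9.73 CPM in NS and 5.04, 10.01, 12.4, 2.04 and 1.93 CPM in S (log2 change -1.77 ± 0.30, edgeR adjusted p = 0.00371). Its level before stretch was higher in animals 1 to 3 than in animals 4 and 5, and it fell in each. Acta1, an actin of striated muscle, fell by 1.79 ± 0.32, and animal 1 kept 298 CPM after stretch where the other 4 animals had 11.2 to 29.1 CPM. Tuba8, an alpha tubulin, fell most among the called genes with a mean of 10 CPM or more (log2 change -3.23 ± 0.33, edgeR adjusted p = 0.000160), to 1.29 to 3.53 CPM in S, which is close to the detection floor.

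Promoters of these genes were searched for 10 transcription factor motifs, on both strands, in the 250 bases before and 50 bases after the start given by RefSeq (rat build GRCr8, 1 start per gene). Of the 7778 tested symbols 7698 matched the RefSeq gene table and 6386 had a sequence, among them 429 rises and 407 falls. The motif whose share differed most between rises and falls was CCAAT, the NF-Y box, held by 34.7% of rises, 39.3% of falls and 37.9% of all. The palindrome TGACGTCA, the cyclic AMP response element, was held by 3.26% of rises, 6.63% of falls and 3.51% of all. TGANTCA, the site of Fos and Jun dimers, was held by 6.06% of rises, 5.90% of falls and 4.79% of all, and heat shock elements by 1.63%, 0.246% and 0.470%. A CCAAT and a TGANTCA match shared a base in 2 promoters. These shares are descriptions, and most motifs were about as frequent in called as in all promoters. Among the largest changes with a sequence, CCAAT lay upstream of the start in 8 of 21 rises and 4 of 17 falls. Over all calls, with the bases after the start included, the share was instead higher in falls. The share of all promoters with CCAAT in the upstream bases alone was not determined. Windows of 60 upstream bases are shown for all 4 falls and for the 4 named rises with the largest change, to show where the box lies. Capitals mark CCAAT or its complement ATTGG.
Serpinb2, chr13:24055771-24055830, plus strand: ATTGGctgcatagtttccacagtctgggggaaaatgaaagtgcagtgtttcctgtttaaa
Tnfaip6, chr3:56911239-56911298, plus strand: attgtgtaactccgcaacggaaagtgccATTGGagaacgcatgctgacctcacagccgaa
Cxcl6, chr14:17596538-17596597, minus strand: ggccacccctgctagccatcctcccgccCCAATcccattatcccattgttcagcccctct
Pcdh18, chr2:135996859-135996918, minus strand: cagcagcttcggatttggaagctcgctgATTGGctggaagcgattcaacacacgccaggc
Dcdc2, chr17:40458889-40458948, minus strand: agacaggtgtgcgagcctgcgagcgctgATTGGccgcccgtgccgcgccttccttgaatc
Akap5, chr6:100787109-100787168, plus strand: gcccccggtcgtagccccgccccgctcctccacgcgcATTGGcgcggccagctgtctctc
Atp12a, chr15:34559048-34559107, plus strand: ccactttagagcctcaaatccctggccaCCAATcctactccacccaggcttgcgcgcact
Gadd45g, chr17:13530419-13530478, minus strand: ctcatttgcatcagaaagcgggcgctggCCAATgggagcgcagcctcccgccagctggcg

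Upstream of the start, TGANTCA was held by 5 of the 21 largest rises with a sequence and by 1 of the 17 largest falls. Its share of all promoters in the upstream bases alone was not determined. With the bases after the start included, it was held by 6.06% of all rises, 5.90% of all falls and 4.79% of all promoters. The windows of the 5 rises were chosen for display after the values had been seen. The reason was that Fosl1, itself a partner of Jun, rose 5.34-fold (log2 change 2.42 ± 0.33, edgeR adjusted p = 0.00103). Whether Fosl1 or Jun acts on these 5 genes was not tested. Capitals mark TGANTCA. They lie 60 to 192 bases before the start. All 5 genes encode secreted or membrane proteins: the protease inhibitor Serpinb2, the cytokine Il11, the collagenase Mmp13, the hyaluronan-binding protein Tnfaip6 and Emp1.
Serpinb2, chr13:24055805-24055864, plus strand: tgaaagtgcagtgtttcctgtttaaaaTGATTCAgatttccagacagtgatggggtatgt
Il11, chr1:78098453-78098512, plus strand: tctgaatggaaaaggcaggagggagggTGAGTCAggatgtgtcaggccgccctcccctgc
Mmp13, chr8:12782736-12782795, plus strand: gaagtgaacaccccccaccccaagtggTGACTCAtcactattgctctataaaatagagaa
Tnfaip6, chr3:56911179-56911238, plus strand: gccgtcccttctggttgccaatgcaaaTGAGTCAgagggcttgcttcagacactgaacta
Emp1, chr4:169944115-169944174, plus strand: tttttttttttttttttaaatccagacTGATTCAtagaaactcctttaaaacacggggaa

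Secreted signals changed in both directions. Among small chemokines and interleukins 8 of 27 tested members rose and 2 fell (37% called, median log2 change 0.57, and 6 to 8 rises and 2 to 3 falls with 1 animal left out). Over all genes 13.5% were called. Interleukin 11, a cytokine of the gp130 family that acts on fibroblasts and epithelia, was at 5.58, 17.7, 17.8, 63.8 and 72.5 CPM in NS and 43.3, 103, 136, 269 and 337 CPM in S (log2 change 2.48 ± 0.20, edgeR adjusted p = 2.15e-05). Animals 4 and 5 had more of it than animals 1 to 3 both before and after stretch, and all 5 rose. The monocyte chemoattractant Ccl3 rose 4.43-fold and the neutrophil chemoattractants Cxcl2 and Cxcl6 rose 4.76-fold and 4.02-fold, each in 5 of 5 animals. Cxcl6 stood at 0.491 and 1.23 CPM in NS of animals 2 and 3, under the detection floor of those libraries. Not all signals to leukocytes went that way. Csf1, the growth factor that keeps macrophages alive, was at 94.3, 129.6, 125, 116 and 130.3 CPM in NS and 34.8, 54.7, 37.1, 50.9 and 62.4 CPM in S (log2 change -1.33 ± 0.17, edgeR adjusted p = 0.000677), with every S value under every NS value, and Ccl1, a chemokine for T cells, fell by 2.48 ± 0.45, to 0 CPM in animal 1. The summed level of macrophage and leukocyte markers, given with the cell types below, was also higher in S in 5 of 5 animals, and its part in these values was not tested. In bulk RNA, fewer cells that express a gene and less RNA per cell cannot be told apart.

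Activins, bone morphogenetic proteins and growth factors were the other secreted group. Of the TGF-beta and BMP list 8 of 38 tested members rose and 3 fell (28.9% called, median log2 change 0.42, and 3 to 6 rises and 2 to 3 falls with 1 animal left out, the fewest rises without animal 4). Of the growth factors and receptor tyrosine kinases 11 of 43 tested members rose and 1 fell (27.9% called, median log2 change 0.28, and 4 to 12 rises and 0 to 2 falls with 1 animal left out, the fewest rises without animal 3). Inhba, which encodes the subunit of activin A, was at 93.4, 107, 295, 725 and 476 CPM in NS and 1212, 474, 655, 1019 and 1423 CPM in S (log2 change 1.77 ± 0.35, edgeR adjusted p = 0.00723). The gap between animals in NS was wide, and every animal rose. Its relative Inhbb, the subunit of activin B, went the other way, at 48.3, 55.001, 49.03, 69.7 and 58.4 CPM in NS and 12.6, 21.4, 24.1, 43.8 and 36.7 CPM in S (log2 change -1.11 ± 0.22, edgeR adjusted p = 0.00750). Bmp2 was at 27.4, 22.6, 27.6, 23.04 and 21.1 CPM in NS and 36.8, 103, 106, 57.03 and 96.6 CPM in S (log2 change 1.63 ± 0.26, edgeR adjusted p = 0.00237), with animal 1 gaining least, while its antagonist Nog fell by 1.22 ± 0.27, a call lost without animal 2 (edgeR adjusted p = 0.0611). Id1, a direct target of BMP signalling in many cells, fell by 1.12 ± 0.25, and this call was lost without animal 3 (edgeR adjusted p = 0.0575). Zeb2, a repressor of epithelial genes, rose from 15.7 ± 7.11 to 38.5 ± 13.2 CPM (log2 change 1.31 ± 0.26, edgeR adjusted p = 0.00794). Met, the receptor for hepatocyte growth factor, rose 2.57-fold (log2 change 1.36 ± 0.25, edgeR adjusted p = 0.00544), and Wnt5a, a ligand of noncanonical Wnt signalling, rose by 0.81 ± 0.19. The epidermal growth factor ligand Hbegf rose by 1.24 ± 0.31, with animal 1 at 3.05, and its call was lost without animal 3 (edgeR adjusted p = 0.0563).

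Cytokine receptors, innate sensors and interferon genes were called at 12.5% to 18.4%, against 13.5% of all genes. Of the interleukin and cytokine receptors 3 of 39 tested members rose and 3 fell (15.4% called, median log2 change -0.14, and 2 to 4 rises and 1 to 4 falls with 1 animal left out). The chemokine receptor Cxcr4 rose from 219.96 ± 128 to 482 ± 244 CPM (log2 change 1.21 ± 0.20, edgeR adjusted p = 0.00344) and Il10rb, a chain shared by receptors for interleukin 10 and lambda interferons, fell by 0.91 ± 0.20 with no overlap. Of the innate sensors and their adaptors 6 of 38 tested members rose and 1 fell (18.4% called, median log2 change 0.06, and 3 to 6 rises and 0 to 2 falls with 1 animal left out, the fewest rises without animal 3). Map3k8, the kinase that links Toll-like receptors to ERK, was at 7.43, 10.3, 8.58, 5.91 and 9.19 CPM in NS and 30.7, 36.8, 29.1, 30.5 and 11.6 CPM in S (log2 change 1.69 ± 0.29, edgeR adjusted p = 0.00371), where animal 5 gained least. Ripk2, the adaptor of the NOD sensors, rose by 1.16 ± 0.24 and Zc3h12a, a ribonuclease that degrades cytokine mRNA, by 1.43 ± 0.24. In the list of interferon response and antigen presentation 0 of 48 tested members rose and 6 fell (12.5% called, median log2 change -0.30, and 0 to 1 rises and 2 to 5 falls with 1 animal left out, the fewest falls without animal 2). Irf1, a transcription factor that drives interferon-stimulated genes, was at 91.5, 198, 144, 117 and 150.3 CPM in NS and 16.1, 75.1, 68.01, 76.4 and 70.2 CPM in S (log2 change -1.31 ± 0.23, edgeR adjusted p = 0.00405), and all 5 S values stood below all NS values.

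Notch and cyclic AMP signalling genes were called at about the rate of all genes (13.5%), and nuclear receptors at a higher rate. Both called genes of the Notch and Hedgehog list were Hes repressors: Hes1 was at 132, 223, 273, 173 and 148 CPM in NS and 59.96, 88.6, 101, 77.4 and 123 CPM in S (log2 change -1.07 ± 0.19, edgeR adjusted p = 0.00478) and Hes6 was at 108, 107, 99.3, 80.3 and 91.4 CPM in NS and 49.9, 33.6, 34.003, 53.97 and 36.7 CPM in S (log2 change -1.25 ± 0.19, edgeR adjusted p = 0.00211), neither with overlap. The other 13 tested members of that list were not called (13.3% called, median log2 change -0.05, and 0 rises and 2 falls with 1 animal left out). In cyclic AMP and G protein signalling 2 of 47 tested members rose and 5 fell (14.9% called, median log2 change -0.02, and 2 rises and 4 to 6 falls with 1 animal left out). Akap2, an anchor that holds protein kinase A at the actin cortex, was at 798, 445, 487, 663 and 690.5 CPM in NS and 282, 235, 218, 201 and 223 CPM in S (log2 change -1.39 ± 0.18, edgeR adjusted p = 0.000612), with no overlap. Lpar6, a receptor for lysophosphatidic acid, fell by 1.61 ± 0.33. Rgs2, which shuts off Gq proteins, rose by 1.41 ± 0.28 and Ramp3, a partner of the calcitonin receptor family, by 1.08 ± 0.26. Of the nuclear receptors and coregulators 9 of 34 tested members rose and 0 fell (26.5% called, median log2 change 0.44, and 5 to 7 rises and 0 falls with 1 animal left out, the fewest rises without animal 3). Cited2, which competes for the coactivator CBP, was at 190.03, 220.5, 209, 207 and 245 CPM in NS and 1000.2, 485, 440.2, 448 and 461 CPM in S (log2 change 1.32 ± 0.22, edgeR adjusted p = 0.00302), with animal 1 rising most. The orphan receptor Nr4a2 rose 3.496-fold and Pprc1, a coactivator of mitochondrial genes, rose by 0.94 ± 0.21. Glucocorticoid-induced genes were called in both directions. Of these 3 of 32 tested members rose and 4 fell (21.9% called, median log2 change 0.08, and 2 to 4 rises and 2 to 3 falls with 1 animal left out, the fewest falls without animal 1). Cebpd, the member with the smallest p, was at 25.1, 68.3, 53.9, 81.5 and 70.3 CPM in NS and 6.05, 15.7, 12.98, 18.3 and 14.2 CPM in S (log2 change -2.14 ± 0.20, edgeR adjusted p = 0.000117). In the clock list Cry1, a repressor of the circadian clock, rose by 1.08 ± 0.22, and Nfil3, a clock output repressor, rose by 1.09 ± 0.26, the latter lost without animal 3 (edgeR adjusted p = 0.0614).

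**Figure D2:**
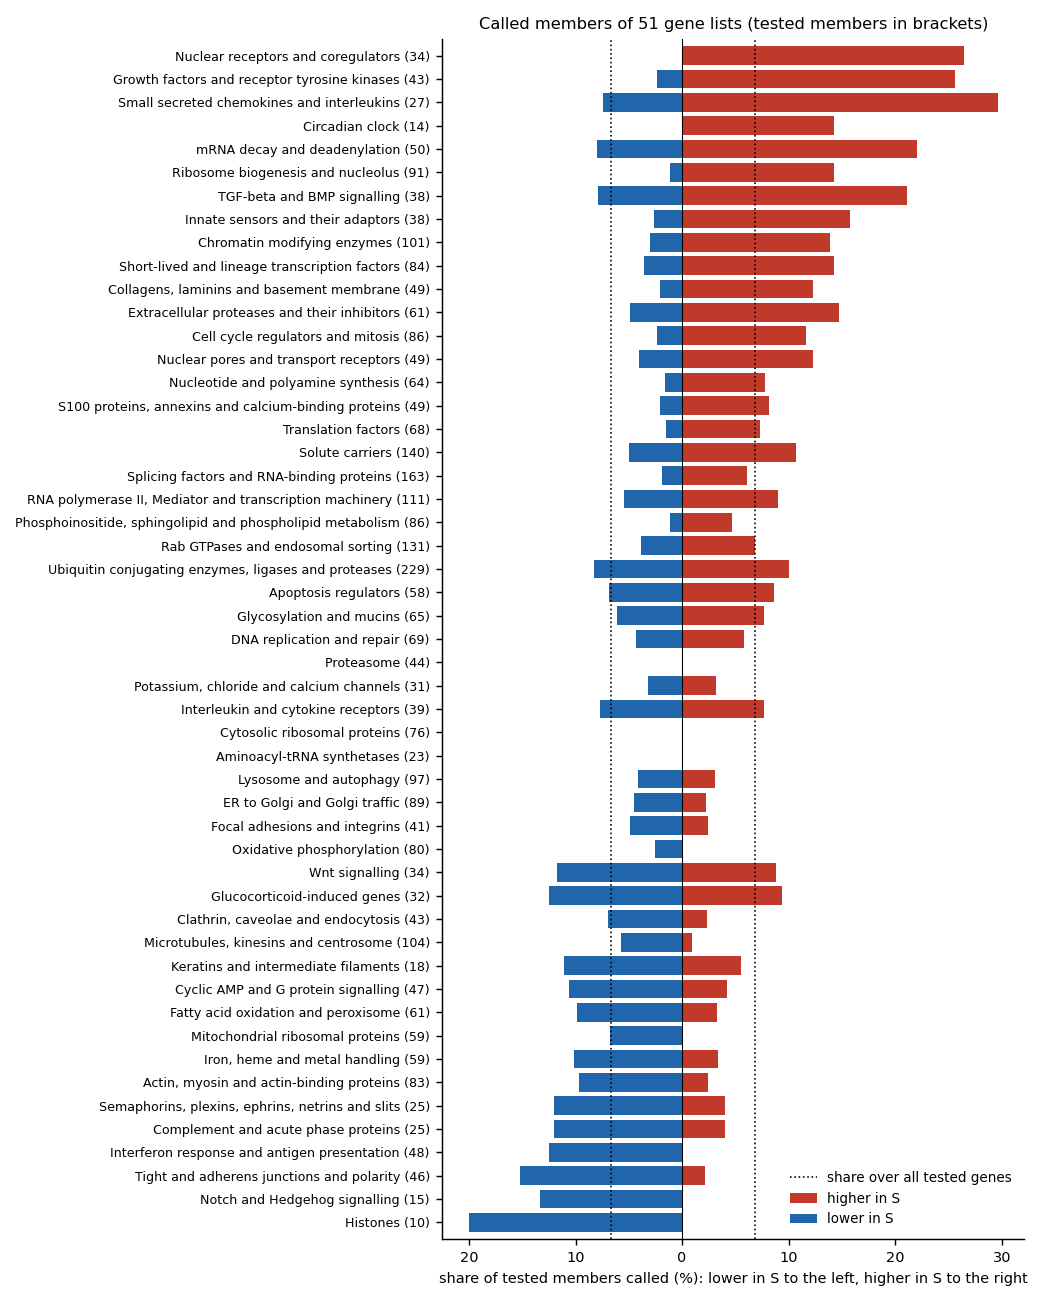
Bars give the share of tested members (horizontal axis, percent) that rose, to the right in red, or fell, to the left in blue, in each gene list shown, with the number of tested members in brackets, and dotted lines mark the shares over all tested genes, 6.83% and 6.65%. Nuclear receptors, growth factors and chemokines reached furthest to the right, junctions and interferon genes lay to the left, and the proteasome, cytosolic ribosomal proteins and aminoacyl-tRNA synthetases had no call.

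Most called transcription factors rose, and the transcription machinery was called at about the rate of all genes. Of the short-lived and lineage transcription factors 12 of 84 tested members rose and 3 fell (17.9% called, median log2 change 0.22, and 6 to 13 rises and 2 to 3 falls with 1 animal left out, the fewest rises without animal 3). Csrnp1, an immediate-early nuclear protein, was at 32.1, 25.05, 40.5, 31.3 and 29.2 CPM in NS and 453, 312, 417, 195 and 187 CPM in S (log2 change 3.24 ± 0.22, edgeR adjusted p = 6.22e-06), the smallest p of all genes. The small Maf proteins Mafk and Maff, which pair with NRF2 and related factors, rose by 1.32 ± 0.18 and 1.25 ± 0.23. Elf3, an epithelial ETS factor, fell by 1.03 ± 0.20 and Usf2, an E-box factor, by 0.84 ± 0.16. In the list of RNA polymerase II, Mediator and the transcription machinery 10 of 111 tested members rose and 6 fell (14.4% called, median log2 change 0.02, and 4 to 7 rises and 2 to 5 falls with 1 animal left out, the fewest of both without animal 3). Hexim1, which holds the elongation kinase P-TEFb inactive, was at 201, 119, 138, 208 and 159 CPM in NS and 334, 491, 342, 476 and 291 CPM in S (log2 change 1.23 ± 0.20, edgeR adjusted p = 0.00285). The groups did not overlap. Within Mediator, the complex between activators and the polymerase, subunits diverged: Med26 rose by 1.26 ± 0.24, and Med9 was at 19.05, 23.6, 30.03, 26.6 and 29.7 CPM in NS and 6.55, 10.01, 6.801, 11.2 and 10.3 CPM in S (log2 change -1.52 ± 0.24, edgeR adjusted p = 0.00258), with no overlap. Taf1d, a factor for RNA polymerase I, rose by 1.14 ± 0.20, and Gtf2e2, a subunit of TFIIE, fell by 1.03 ± 0.18.

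Chromatin enzymes were called mostly upward. In their list 14 of 101 tested members rose and 3 fell (16.8% called, median log2 change 0.03, and 7 to 16 rises and 1 to 3 falls with 1 animal left out, the fewest rises without animal 5). Jmjd6, an oxygenase that acts on arginine and lysine residues, was at 28.8, 46.2, 42.3, 62.02 and 48.1 CPM in NS and 64.5, 155, 171, 71.3 and 94.6 CPM in S (log2 change 1.24 ± 0.24, edgeR adjusted p = 0.00664), with animal 4 gaining least. Phf3, a protein that docks on the polymerase tail, rose from 96.2 ± 13.7 to 196 ± 57.1 CPM (log2 change 1.003 ± 0.17, edgeR adjusted p = 0.00354), Phf13, a reader of active histone marks, rose by 1.12 ± 0.22, and Eed, a core subunit of the Polycomb complex PRC2, rose by 0.92 ± 0.19. Kdm4a, a histone demethylase, went against them, falling from 176 ± 41.8 to 93.3 ± 42.9 CPM (log2 change -1.03 ± 0.21, edgeR adjusted p = 0.00799). Of 10 tested histone genes 2 fell and 0 rose (20% called, against 13.5% of all genes). Hist3h2a was among them, at -0.92 ± 0.20, and as histone genes resemble each other its reads may be shared with a copy.

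RNA processing and RNA decay were covered by separate lists, to be read beside the 13.5% called over all genes. Of the splicing factors and RNA-binding proteins 10 of 163 tested members rose and 3 fell (7.98% called, median log2 change 0.12, and 2 to 11 rises and 1 to 3 falls with 1 animal left out, the fewest rises without animal 3). Sfpq, a paraspeckle protein, rose from 129 ± 33.2 to 276 ± 93.7 CPM and Ptbp1, a splicing repressor, from 86.99 ± 27.8 to 171 ± 62.05 CPM, while Prpf31, of the U4/U6 particle, fell by 1.05 ± 0.21. In mRNA decay and deadenylation 11 of 50 tested members rose and 4 fell (30% called, median log2 change 0.18, and 4 to 8 rises and 2 to 4 falls with 1 animal left out, the fewest rises without animal 3 and the fewest falls without animal 3 or 5). Tob2, which recruits the deadenylase, was at 59.9, 114, 148, 121 and 81.6 CPM in NS and 135, 489, 417, 229 and 138 CPM in S (log2 change 1.296 ± 0.20, edgeR adjusted p = 0.00233). It rose in each animal, though S of animals 1 and 5 lay within the range of NS. Patl1, a decapping activator, rose by 0.96 ± 0.19, whereas Zfp36l1, which binds AU-rich mRNA, and Exosc9, a subunit of the RNA exosome, fell by 0.77 ± 0.16 and 0.92 ± 0.19. In the nuclear pore list Nup62, of the central channel, rose by 0.87 ± 0.21.

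Most called genes of ribosome assembly rose, at a share of calls near that of all genes, and cytosolic ribosomal proteins had no call. In the ribosome biogenesis and nucleolus list 13 of 91 tested members rose and 1 fell (15.4% called, median log2 change 0.27, and 4 to 9 rises and 0 to 1 falls with 1 animal left out, the fewest rises without animal 3). Of 76 cytosolic ribosomal proteins 0 passed in either direction, with changes between -0.33 and 0.60, and of 23 aminoacyl-tRNA synthetases 0 passed, with changes between -0.37 and 0.57. Of the mitochondrial ribosomal proteins 0 of 59 tested members rose and 4 fell (6.78% called, median log2 change -0.20, and 0 rises and 2 to 6 falls with 1 animal left out, the fewest falls without animal 2 or 3). Mrpl16, of the large mitochondrial subunit, was at 74.3, 61.9, 60.7, 80.9 and 74.6 CPM in NS and 42.3, 25.7, 32.1, 43.8 and 50.2 CPM in S (log2 change -0.89 ± 0.18, edgeR adjusted p = 0.00814). Its groups did not overlap, and Mrpl44 of the same subunit fell by 1.08 ± 0.25. Pelo, which rescues stalled ribosomes, was at 120.3, 116, 141, 109 and 114 CPM in NS and 321, 231, 268, 177 and 205 CPM in S (log2 change 0.98 ± 0.17, edgeR adjusted p = 0.00344), likewise without overlap.

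**Figure D3:**
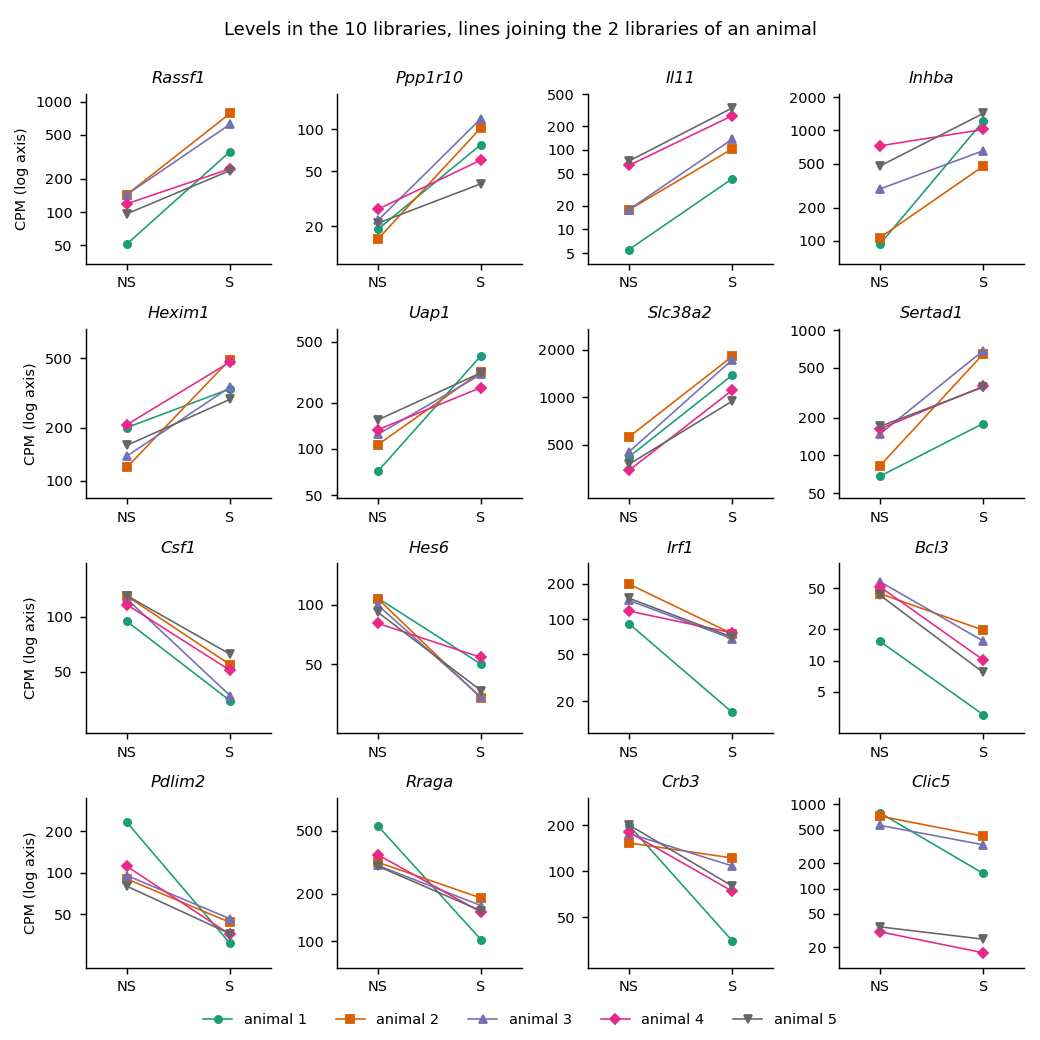
Levels of 16 genes in CPM (vertical log axis) are shown in the unstretched (NS) and stretched (S) library of each animal, with a line joining the 2 libraries of an animal. The upper 8 genes rose and the lower 8 fell, with all 5 lines of a panel running the same way, and Clic5 showed the gap in starting level between animals 1 to 3 and animals 4 and 5.

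Enzymes of the ubiquitin system changed in both directions, with 18.3% called against 13.5% of all genes. Of the conjugating enzymes, ligases and proteases 23 of 229 tested members rose and 19 fell (18.3% called, median log2 change 0.05, and 7 to 22 rises and 8 to 13 falls with 1 animal left out, the fewest rises without animal 3 and the fewest falls without animal 2 or 3). The proteasome itself had 0 calls among 44 tested subunits, with changes between -0.67 and 0.60. Klhl21, a cullin adaptor needed in cell division, was at 38.6, 94.8, 126, 95.7 and 111 CPM in NS and 86.7, 458, 361, 309.6 and 277 CPM in S (log2 change 1.602 ± 0.19, edgeR adjusted p = 0.000344). Klhl9, a cullin adaptor of the same family and process, moved oppositely, at 71.1, 50.1, 40.5, 44.3 and 43.3 CPM in NS and 19.1, 14.3, 12.98, 22.4 and 24.5 CPM in S (log2 change -1.44 ± 0.23, edgeR adjusted p = 0.00227). Fbxo34, an F-box protein, rose by 1.24 ± 0.22 and Usp36, a nucleolar deubiquitinase, by 1.14 ± 0.25. Trim63, a ligase known from wasting muscle, fell by 1.95 ± 0.29, though it rose in animal 4, where it stood at 2.36 CPM before and 3.05 CPM after stretch, near the detection floor.

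Lysosomes and traffic gave few calls, at lower shares than the 13.5% of all genes. In the lysosome and autophagy list 3 of 97 tested members rose and 4 fell (7.22% called, median log2 change 0.10, and 0 to 3 rises and 2 to 4 falls with 1 animal left out, the fewest falls without animal 3). The strongest concerned nutrient sensing and vesicle formation. Rraga, a Rag GTPase that brings mTORC1 to the lysosome when amino acids are present, was at 537, 316, 302, 353 and 298 CPM in NS and 102, 188, 168, 153 and 156 CPM in S (log2 change -1.21 ± 0.23, edgeR adjusted p = 0.00574), with every S value below every NS value and the steepest fall in animal 1. Pik3r4, the regulatory partner of the lipid kinase Vps34 in autophagy, was at 70.6, 53.5, 43.5, 47.8 and 36.2 CPM in NS and 14.1, 25.4, 14.8, 16.3 and 26.4 CPM in S (log2 change -1.37 ± 0.26, edgeR adjusted p = 0.00559), also without overlap. Of the Rab GTPases and endosomal sorting genes 9 of 131 tested members rose and 5 fell (10.7% called, median log2 change -0.08, and 1 to 10 rises and 3 to 5 falls with 1 animal left out, the fewest rises without animal 3 and the fewest falls without animal 1, 3 or 5). Rab38, known for the biogenesis of lamellar bodies in type II cells, fell by 1.499 ± 0.25 and Dennd2d, an exchange factor for Rab proteins, by 1.605 ± 0.23, both with no overlap. Rab35 and Arf6, GTPases of endocytic recycling at the plasma membrane, rose by 0.98 ± 0.19 and 0.96 ± 0.18, and Cog7, of the Golgi tethering complex, fell by 1.35 ± 0.27. Lrp1, a scavenging endocytic receptor, rose by 0.74 ± 0.16, its relative Vldlr fell by 0.87 ± 0.19, and Pacsin3, which bends membranes at caveolae, fell by 1.003 ± 0.23.

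The actin and microtubule lists were called at shares below the 13.5% of all genes, and their medians stayed near 0. Of the actin, myosin and actin-binding proteins 2 of 83 tested members rose and 8 fell (12% called, median log2 change 0.02, and 1 to 2 rises and 3 to 9 falls with 1 animal left out, the fewest falls without animal 5). Of the microtubule, kinesin and centrosome genes 1 of 104 tested members rose and 6 fell (6.73% called, median log2 change -0.02, and 1 to 3 rises and 4 to 6 falls with 1 animal left out). A pair of genes of the cofilin step was called: Cfl2, which severs actin filaments, fell from 271 ± 142 to 131 ± 56.2 CPM (log2 change -1.004 ± 0.17, edgeR adjusted p = 0.00371), and Limk2, the kinase that inactivates cofilin, fell from 153 ± 20.1 to 80.1 ± 29.2 CPM (log2 change -0.99 ± 0.20, edgeR adjusted p = 0.00750). Pdlim2, an adaptor of the actin cytoskeleton that also degrades nuclear NF-kB, was at 233, 90.4, 95.6, 112 and 80.02 CPM in NS and 30.7, 43.6, 46.4, 35.6 and 36.05 CPM in S (log2 change -1.55 ± 0.26, edgeR adjusted p = 0.00330). Its groups did not overlap, and animal 1 was high in NS. Tagln, a smooth muscle actin-binding protein, fell by 1.01 ± 0.17 and Sorbs2, an adaptor of stress fibres, by 1.19 ± 0.19. Rnd1, a small GTPase that promotes cell rounding, fell by 1.31 ± 0.26, and Arhgap24, a GTPase-activating protein for Rac, was at 46.9, 27.99, 22.7, 17.7 and 28.1 CPM in NS and 4.03, 10.01, 16.7, 10.2 and 10.3 CPM in S (log2 change -1.51 ± 0.36, edgeR adjusted p = 0.0162). Myo10, the motor of filopodia, rose by 0.99 ± 0.19. In the microtubule list Dcdc2, a doublecortin protein of cilia, was at 50.6, 34.9, 38.001, 10.04 and 23.8 CPM in NS and 6.05, 7.86, 8.66, 2.04 and 3.86 CPM in S (log2 change -2.44 ± 0.26, edgeR adjusted p = 0.000208), with no overlap. Tubgcp5, of the microtubule-nucleating ring, fell by 1.26 ± 0.28, and the centrosome protein Cep85 rose by 1.13 ± 0.20. Focal adhesions and integrins had 1 rise and 2 falls among 41 tested (7.32% called).

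Junction genes fell in part, with 17.4% called in either direction against 13.5% of all genes. Of the tight and adherens junction and polarity genes 1 of 46 tested members rose and 7 fell (17.4% called, median log2 change -0.19, and 0 to 1 rises and 2 to 9 falls with 1 animal left out, the fewest falls without animal 5). Crb3, an apical polarity protein that organises tight junctions, was at 201, 154, 177, 181 and 202 CPM in NS and 35.3, 123, 109, 74.3 and 80.5 CPM in S (log2 change -1.201 ± 0.26, edgeR adjusted p = 0.0109). Each S library stood below each NS library, by most in animal 1. Marveld1, which shares its membrane domain with occludin, fell from 277 ± 106 to 131 ± 46.2 CPM (log2 change -1.07 ± 0.25, edgeR adjusted p = 0.0171). Cldn18, the claudin typical of alveolar epithelium, fell by 0.89 ± 0.20, and this call was lost without animal 5 (edgeR adjusted p = 0.0659). Krt8, or keratin 8, the intermediate filament of simple epithelia, was at 1379.9, 898, 706, 687 and 695 CPM in NS and 612, 556, 668, 305 and 384 CPM in S (log2 change -0.79 ± 0.19, edgeR adjusted p = 0.0176), without overlap, a call lost without animal 4 or 5 (edgeR adjusted p = 0.0658 and 0.0638).

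**Figure D4:**
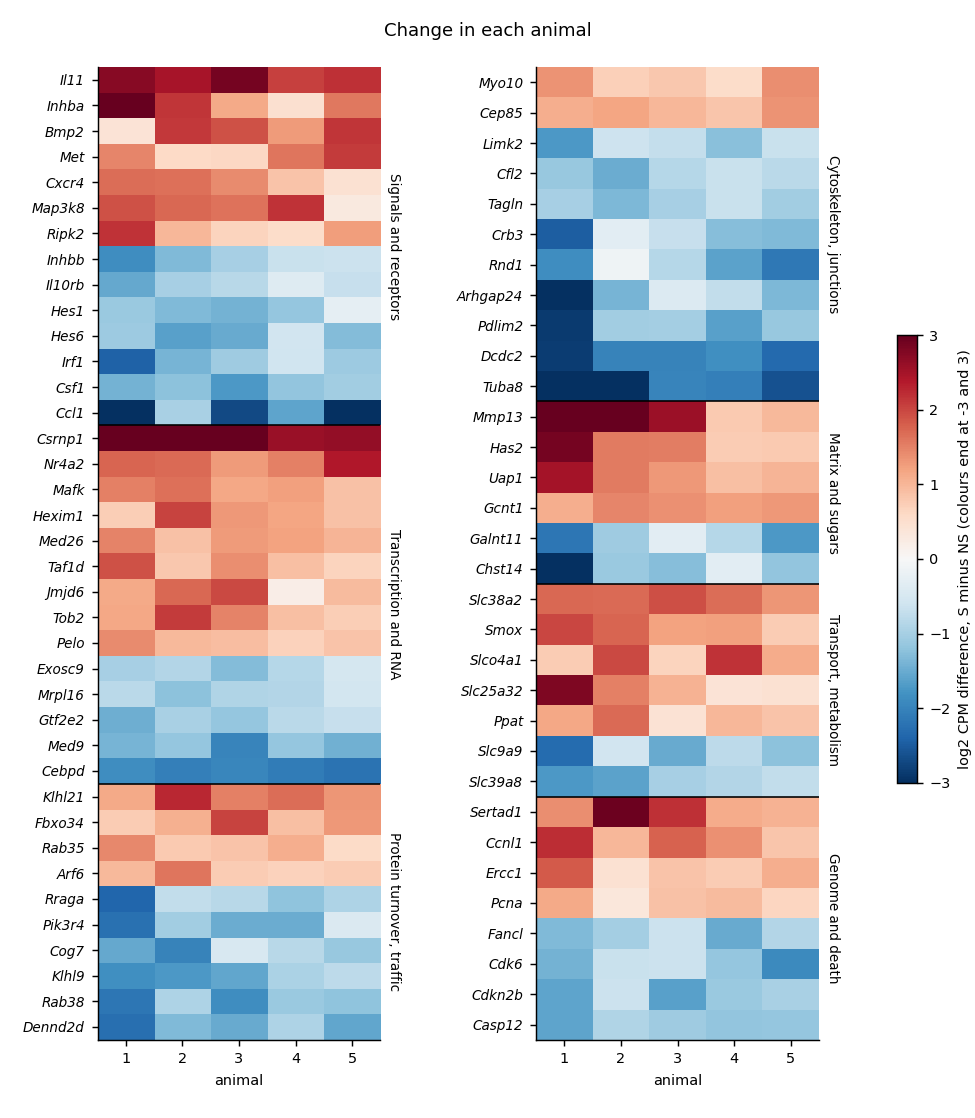
Colours give the difference in log2 CPM between the S and the NS library of each animal (columns) for called genes named in the text (rows), grouped by role, with red for higher and blue for lower in S, and colours ending at -3 and 3. Rows were of 1 colour across the 5 animals for nearly all genes, and animal 1 had the darkest cell for many, among them Chst14, Arhgap24 and Uap1.

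Collagens and laminins were called at about the rate of all genes. In their list 6 of 49 tested members rose and 1 fell (14.3% called, median log2 change 0.27, and 0 to 4 rises and 0 to 1 falls with 1 animal left out, the fewest rises without animal 4 or 5). Col7a1, the collagen of anchoring fibrils under epithelia, rose from 7.08 ± 8.67 to 20.3 ± 19.01 CPM (log2 change 1.74 ± 0.36, edgeR adjusted p = 0.00961). In NS of animals 1 and 2 it was at 0 and 0.982 CPM, under the detection floor. Among extracellular proteases and their inhibitors 9 of 61 tested members rose and 3 fell (19.7% called, median log2 change 0.14, and 7 to 9 rises and 0 to 3 falls with 1 animal left out). The collagenase Mmp13 was at 1.39, 8.35, 8.58, 20.1 and 20.01 CPM in NS and 61.97, 74.3, 56.3, 35.6 and 40.6 CPM in S (log2 change 2.34 ± 0.45, edgeR adjusted p = 0.00622). Its groups did not overlap, and animal 1 began at 1.39 CPM, a count of 3. The stromelysin Mmp3 rose by 1.44 ± 0.30. Serpinb2, an inhibitor of urokinase, was at 17.7, 5.89, 3.68, 2.36 and 0.541 CPM in NS and 254, 10.4, 19.2, 14.3 and 28.97 CPM in S (log2 change 2.97 ± 0.45, edgeR adjusted p = 0.00178). It rose in each animal, while animal 1 alone passed 100 CPM, and its NS value in animal 5 lay under the detection floor. Tnfaip6, which crosslinks hyaluronan, rose 4.94-fold, from 51.9 ± 47.7 to 215 ± 140.2 CPM. The summed level of fibroblast markers, given with the cell types below, was also higher in S in animals 1, 4 and 5. Its part in these values was not tested.

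Glycosylation enzymes were called at about the rate of all genes. In the glycosylation and mucin list 5 of 65 tested members rose and 4 fell (13.8% called, median log2 change 0.04, and 2 to 4 rises and 2 to 4 falls with 1 animal left out, the fewest rises without animal 3 or 4 and the fewest falls without animal 2, 3 or 5). Has2, a hyaluronan synthase outside that list, was at 26.02, 14.2, 18.4, 43.7 and 65.4 CPM in NS and 197, 43.96, 55.6, 74.3 and 113 CPM in S (log2 change 1.53 ± 0.28, edgeR adjusted p = 0.00542). Animals 4 and 5 began above animals 1 to 3, and each animal rose. Uap1, which makes UDP-N-acetylglucosamine, a substrate of hyaluronan, was at 71.5, 107, 124, 133 and 155 CPM in NS and 406, 318, 307, 252 and 314 CPM in S (log2 change 1.46 ± 0.22, edgeR adjusted p = 0.00178), with no overlap. Gfpt2, which makes the first intermediate of that path, rose by 1.01 ± 0.27, a call lost without animal 1, 3 or 4 (edgeR adjusted p = 0.0563, 0.0770 and 0.0593). Gcnt1, which branches O-linked glycans, rose from 91.4 ± 25.9 to 225 ± 59.3 CPM (log2 change 1.298 ± 0.16, edgeR adjusted p = 0.000448). A pair of enzymes that start or modify chains fell, Galnt11, which begins O-linked glycans, by 1.29 ± 0.28 and Chst14, which sulfates dermatan, by 1.44 ± 0.34.

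Transporters were called at about the rate of all genes. Of the solute carriers 15 of 140 tested members rose and 7 fell (15.7% called, median log2 change 0.04, and 7 to 16 rises and 4 to 6 falls with 1 animal left out, the fewest rises without animal 3 and the fewest falls without animal 2 or 3). Slc38a2, which imports small neutral amino acids together with sodium, was at 419, 559.8, 450.5, 344 and 376 CPM in NS and 1376, 1811, 1723, 1105 and 944 CPM in S (log2 change 1.67 ± 0.17, edgeR adjusted p = 0.000160). It was among the most abundant called genes and its groups did not overlap. Slco4a1, an organic anion transporter, rose by 1.41 ± 0.26 and Slc25a32, the mitochondrial folate carrier, by 1.32 ± 0.31. Slc9a9, a sodium and proton exchanger of endosomes, fell from 55.7 ± 27.8 to 21.02 ± 6.78 CPM (log2 change -1.34 ± 0.26, edgeR adjusted p = 0.00676) and Slc39a8, an importer of zinc and manganese, from 35.9 ± 29.5 to 13.1 ± 7.04 CPM (log2 change -1.34 ± 0.24, edgeR adjusted p = 0.00426). Potassium, chloride and calcium channels had 1 rise and 1 fall among 31 tested, the fall being Clic5, described with the type I genes. Nfat5, the transcription factor of osmotic stress, rose from 227 ± 63.4 to 433 ± 141 CPM (log2 change 0.91 ± 0.19, edgeR adjusted p = 0.00992), and S100a10, the partner of annexin A2, rose by 0.85 ± 0.18.

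The lists of nucleotides and polyamines, fatty acids and oxidative phosphorylation had shares of calls at or below that of all genes. In nucleotide and polyamine synthesis 5 of 64 tested members rose and 1 fell (9.38% called, median log2 change 0.14, and 2 to 4 rises and 0 to 1 falls with 1 animal left out, the fewest rises without animal 3). Smox, which oxidises spermine, was at 15.8, 25.5, 39.8, 45.5 and 36.2 CPM in NS and 67.01, 87.6, 92.7, 109 and 61.8 CPM in S (log2 change 1.41 ± 0.21, edgeR adjusted p = 0.00178), with no overlap. Ppat, which begins purine synthesis, rose from 64.4 ± 20.3 to 131 ± 30.1 CPM (log2 change 1.04 ± 0.19, edgeR adjusted p = 0.00566), and Amd1, which supplies the aminopropyl group of polyamines, rose by 0.82 ± 0.19, with an adjusted p of 0.0503 by edgeR without animal 3. In fatty acid oxidation and the peroxisome 2 of 61 tested members rose and 6 fell (13.1% called, median log2 change -0.22, and 1 to 3 rises and 0 to 4 falls with 1 animal left out, the fewest falls without animal 3). Cpt1a, which lets fatty acids enter mitochondria, rose by 0.88 ± 0.20, and Etfdh, which passes their electrons to the respiratory chain, fell by 1.19 ± 0.29, calls lost without animal 5 (edgeR adjusted p = 0.0579) and animal 3 (0.0567). Of 80 genes of oxidative phosphorylation 0 rose and 2 fell, with changes between -0.67 and 0.45.

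Cell cycle genes were called at about the rate of all genes. In the list of cell cycle regulators and mitosis 10 of 86 tested members rose and 2 fell (14% called, median log2 change 0.22, and 3 to 12 rises and 2 falls with 1 animal left out, the fewest rises without animal 5). Both falls concerned the entry into the cycle: Cdk6, the kinase of G1, fell from 30.2 ± 15.003 to 12.8 ± 5.24 CPM (log2 change -1.199 ± 0.25, edgeR adjusted p = 0.00992), and its inhibitor Cdkn2b was at 623, 1296, 1330.04, 606 and 726 CPM in NS and 206, 828, 426, 280.04 and 369 CPM in S (log2 change -1.19 ± 0.19, edgeR adjusted p = 0.00239). In Cdkn2b animal 2 stood highest in S, and each animal fell. Ccnl1, a cyclin that acts in splicing, rose from 97.7 ± 33.5 to 263 ± 67.2 CPM (log2 change 1.44 ± 0.21, edgeR adjusted p = 0.00147). Pcna, the sliding clamp of replication and repair, rose by 0.79 ± 0.17 and the repair nuclease subunit Ercc1 by 1.06 ± 0.22. Parp2, a sensor of strand breaks, fell by 1.62 ± 0.36 and Fancl, the ubiquitin ligase of the Fanconi pathway, by 1.17 ± 0.27. Over the whole replication and repair list 4 of 69 tested members rose and 3 fell (10.1% called, median log2 change 0.02, and 2 to 3 rises and 2 to 3 falls with 1 animal left out, the fewest rises without animal 1, 2, 3 or 5). Among apoptosis regulators 5 of 58 tested members rose and 4 fell (15.5% called, median log2 change 0.02, and 2 to 5 rises and 2 to 6 falls with 1 animal left out, the fewest rises without animal 3 or 5 and the fewest falls without animal 3 or 4). Sertad1, a cofactor of E2F and CDK4, was at 68.3, 82.5, 148, 163 and 170.3 CPM in NS and 179.9, 645, 685, 355 and 351 CPM in S (log2 change 1.74 ± 0.26, edgeR adjusted p = 0.00178). Its groups did not overlap, though animals 1 and 2 began lower. Ier3, an early response gene that modulates cell death, rose from 1355 ± 574 to 3087 ± 1206 CPM (log2 change 1.23 ± 0.23, edgeR adjusted p = 0.00617), and Casp12, a caspase of the endoplasmic reticulum in rodents, fell by 1.27 ± 0.28.

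Cell type markers tested the label of the monolayers and showed the cells beside them. Type I markers, summed over the 19 listed genes, reached 3843 to 12085 CPM in NS and 2966 to 10012 CPM in S. The sum rested mainly on S100a6, Pdpn and Gprc5a, with means of 2274, 1993 and 1058 CPM in NS. Cav2, Rtkn2, Igfbp6 and Col4a3 had 82, 10, 69 and 38 counts in the 10 libraries together and were not tested. Animals 4 and 5 had the lowest sums in both groups. Of 14 tested type I markers 1 rose and 5 fell (42.9% called, against 13.5% of all genes, median log2 change -0.43). With 1 animal left out, 0 to 2 rose and 3 to 5 fell, the fewest falls without animal 5. Aqp5, a water channel that defines the type, had 0 to 16.7 CPM in NS and was not tested. Ager, the receptor most typical of type I cells, was at 705, 857, 582, 198 and 204 CPM in NS and 366, 1025, 683, 92.7 and 95.9 CPM in S (log2 change -0.51 ± 0.24, edgeR adjusted p = 0.160), up in animals 2 and 3, down in the others, and not called. Clic5, an intracellular chloride channel protein, was at 795, 726, 565, 30.7 and 35.1 CPM in NS and 152, 419.6, 332, 17.3 and 25.1 CPM in S (log2 change -1.09 ± 0.26, edgeR adjusted p = 0.0162). It fell in each animal, from a starting level far higher in animals 1 to 3 than in animals 4 and 5. Scnn1g, a subunit of the epithelial sodium channel, was at 153, 115, 66.2, 5.91 and 5.95 CPM in NS and 14.6, 18.9, 11.1, 1.02 and 3.22 CPM in S (log2 change -2.66 ± 0.29, edgeR adjusted p = 0.000216), with the same split of animals 1 to 3 against 4 and 5. Akap5, which tethers protein kinase A to membranes, fell by 1.88 ± 0.41, although animal 5 had 2.70 CPM before and 5.15 CPM after stretch, and DESeq2 did not call it (adjusted p = 0.132).

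Markers of type II cells and of a transitional state were present as well. Type II markers summed to 1024 to 1341 CPM in NS and 813 to 1757 CPM in S. Of 13 tested 1 rose and 0 fell (7.69% called, against 13.5% of all genes), also with any 1 animal left out. Sftpc, the surfactant protein that defines type II cells, was at 58.5, 10.8, 1.23, 1.18 and 7.57 CPM in NS and 32.8, 12.9, 6.18, 2.04 and 0 CPM in S and was not called (log2 change -0.35 ± 0.50, edgeR adjusted p = 0.675). The riser was Cebpa, a transcription factor shared by type II cells and macrophages, at 0.87 ± 0.18. Of 10 transitional markers 2 rose, Fosl1 and the growth factor Areg, and 1 fell, Krt8 (30% called). With 1 animal left out, 1 to 3 rose and 0 to 1 fell. The call of Areg was lost without animal 3 (edgeR adjusted p = 0.0739).

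Genes of macrophages, leukocytes and fibroblasts were measured in every library. Macrophage and leukocyte markers summed to 1778 to 11029 CPM in NS and 2347 to 14720 CPM in S, higher in S in 5 of 5 animals. Most of the sum was Lyz2, with means of 4582 CPM in NS and 5374 CPM in S. Lyz2 was lower in S in animal 2 and was not called (log2 change 0.16 ± 0.18, edgeR adjusted p = 0.583). Changes of the tested markers ran from -0.30, in Csf1r, to 0.94, in Fcer1g. Of 14 tested 3 rose and 0 fell (21.4% called, against 13.5% of all genes, median log2 change 0.53). With 1 animal left out, 1 to 3 rose and 0 fell. The risers were Fcer1g and Tyrobp, adaptors of myeloid receptors, and the leukocyte lysosomal protein Laptm5. The calls of Tyrobp and Laptm5 were lost without animal 3 (edgeR adjusted p = 0.100 and 0.0582), without animal 5 (0.0973 and 0.0973) and with library size as the only scaling, and that of Laptm5 also without animal 1 or 2 (0.0548 and 0.0718). Fcer1g was at 87.8, 189, 229.8, 454 and 263 CPM in NS and 182, 445, 510.05, 664 and 439 CPM in S (log2 change 0.94 ± 0.17, edgeR adjusted p = 0.00457). Marco, a marker of alveolar macrophages, had 1 count in the 10 libraries together and Cd3e, of T cells, had 2. The chemokines, Csf1, Map3k8 and Zc3h12a above are genes that macrophages also express. Fibroblast and smooth muscle markers summed to 5054 to 9035 CPM in NS and 5135 to 16121 CPM in S. The sum rested mainly on Col1a1, Vim and Acta2, with means of 3931, 1885 and 795 CPM in NS and 6302, 3025 and 1264 CPM in S. Col1a2, Pdgfra and Lum of the same list had 29, 58 and 37 counts in the 10 libraries together and were not tested. In animals 1, 4 and 5 the sum was higher in S, at 16121, 13588 and 15402 CPM against 7102, 8613 and 9035 CPM in NS, and in animals 2 and 3 the sums lay close together, at 5135 and 6051 CPM against 5054 and 6030 CPM. None of 9 tested passed (median 0.22). Col1a1, a fibroblast collagen, was at 2216, 2488, 3397, 5748 and 5809 CPM in NS and 5681, 3147, 3519.6, 8698 and 10462 CPM in S (log2 change 0.64 ± 0.21, edgeR adjusted p = 0.0618), higher in S in 5 of 5 animals and not called, while Thy1, a fibroblast surface marker, had 1 count in all. Of the endothelial markers Cdh5 and Cldn5 had 0 counts and Pecam1 had 2. Of the 2 tested, Esam, an adhesion molecule, fell by 1.18 ± 0.18. Red blood cell genes had 0 counts in 4 of 5 cases. Airway markers summed to 573 to 2302 CPM in NS and 277 to 2119 CPM in S, with 0 of 3 called. Mesothelium markers summed to 150 to 337 CPM in NS and 174 to 967 CPM in S, with 0 of 3 called. Their sum was higher in S in 5 of 5 animals, most in animal 1, at 337 CPM in NS and 967 CPM in S.

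**Figure D5:**
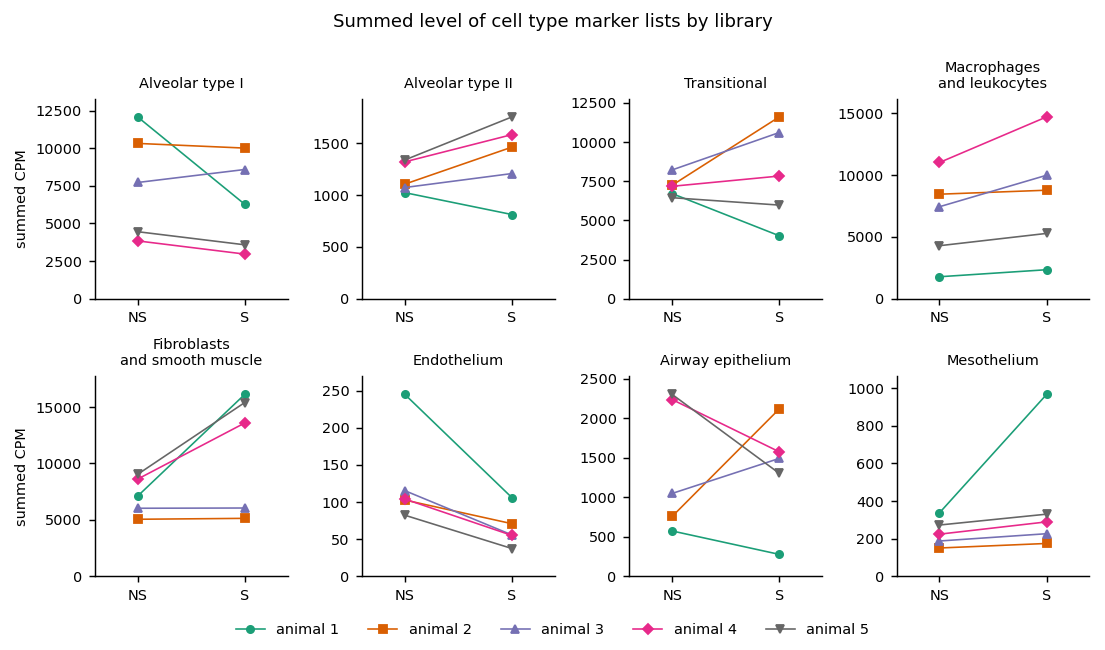
Summed levels of 8 cell type marker lists in CPM (vertical axis, from 0) are shown in the NS and S library of each animal, joined by a line. Type I sums lay lowest in animals 4 and 5, and macrophage and mesothelium sums were higher in S in all 5 animals. Fibroblast sums were higher in S in animals 1, 4 and 5 and nearly level in animals 2 and 3.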

How the data were processed

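Gene expression was measured by QuantSeq 3' end sequencing of polyadenylated RNA, which reads 1 fragment per transcript near its 3' end, so that counts do not scale with gene length. Per the submitters' processing notes, the authors used STAR for alignment to rn6 and HTSeq for counting. Neither versions nor the annotation nor the strand setting of the counting is given in the sources used here, so overlapping and antisense genes could not be separated. The authors deposited raw counts per gene symbol, and these counts are the unit analysed. Their table from DESeq2 does not name its groups and was not used.

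The 5 HTSeq summary entries (reads without a gene, ambiguous, or aligned to several places) made up 58.8 to 75.0% of all entries per library and were left out. Reads aligned to several places were 35.5 to 57.1%, so members of near-identical families can be undercounted. Gene counts per library were 999209 to 3131541, and no molecular identifiers are named.

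Genes were filtered with filterByExpr, scaled by TMM and tested with the quasi-likelihood F test of edgeR 4.0.16 (limma 3.58.1, R 4.3.3) on the 10 libraries, with the animal as a block, which leaves 4 residual degrees of freedom per gene before moderation, and the Benjamini-Hochberg threshold was 0.05. With 5 animals an exact paired permutation test of a single gene cannot go below 0.0625. The replicate number in the sample titles was taken as the animal. After removal of group means, the NS and S libraries of the same number correlated at 0.58, 0.31, 0.42, 0.48 and 0.44 for animals 1 to 5, each above the highest correlation with another number. CPM values are counts scaled by the TMM library sizes. Alternatives were other scalings, no filter or a mean of at least 10 CPM, no replicate block, all 20 libraries in 1 fit, robust moderation, DESeq2 1.42.0 and leaving out each animal.

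The gene lists and cell type markers were chosen with earlier results of these data known. The result of 1 gene list is not reported here. Named genes were the 25 rises and the 25 falls with the largest change at a mean of at least 10 CPM, the 10 smallest p, up to 4 called members per list and direction at that level, cell type markers and genes whose promoter is shown; not all are printed. Symbols were matched to RefSeq, 457 of them through a synonym. Promoter sequences are from RefSeq on build GRCr8, a later build than that of the counts. Figures were drawn with Python 3.11.15 and matplotlib 3.10.9.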

Additional observations from a re-analysis of the deposited data

Results flagged for a closer look

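In 11 of the 152 named genes checked, the difference between the S and NS library of 1 animal stood apart from the other 4. The limit was the Dixon criterion for 5 values (0.71), which chance alone passes in about 1 of 20 independent groups. The genes checked shared the same 5 animals and were mostly called genes, so their number cannot be compared with that share. Values are log2 CPM differences. Animal 1 stood apart in 6 of them. It rose more than the others in Cited2 (2.39 against 0.91 to 1.13), in Hbegf (3.05 against 0.47 to 1.14) and in Nup62 (1.87 against 0.44 to 0.86). It fell more in Clic5 (-2.38 against -0.79 to -0.47), in Pacsin3 (-2.27 against -0.90 to -0.44) and in Rraga (-2.38 against -1.20 to -0.75). Animal 5 changed less than the others in Hes1 (-0.26 against -1.42 to -1.12) and in Map3k8 (0.30 against 1.64 to 2.18), and it fell more in Elf3 (-1.45 against -0.96 to -0.77). Animal 2 fell less in Esam (-0.64 against -1.35 to -1.27) and rose more in Ptbp1 (1.78 against 0.58 to 0.84). All 5 animals differed in the same direction in each of these genes.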

How the results depend on the processing

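The number of genes called, 1048 (531 higher and 517 lower in S), was 1068 with RLE scaling, 1058 with robust moderation, 1015 with DESeq2 and 947 at a mean of at least 10 CPM. Library size alone as scaling gave 346 rises. Without the filter on low counts 1580 of 12816 genes were called (783 higher, 797 lower). The fit to all 20 libraries, which has no term for a stretch response that differs between animals, called 2075 of 8320 genes (1044 higher, 1031 lower) and included 1040 of the 1048. Without the replicate block, that is without pairing by animal, 248 genes were called (125 higher, 123 lower), all of them among the 1048. When 1 animal was left out, 460 to 947 genes were called, 227 to 508 of them higher and 233 to 439 lower. No called gene had the opposite sign in any of these settings. Of 152 named genes, 100 of 2124 values under an alternative lost a call, 75 of them without the replicate block, and Sftpc, which was not called, ranged from a log2 change of -0.69 without animal 3 to 0.065, a reversed sign, without animal 5. Counts of called list members moved beyond 1.5 times in 527 of 1680 values. Col1a1 was called without the filter, with DESeq2 and in the fit to all 20 libraries. Depth limits genes near the detection floor of 1.07 to 3.05 CPM, such as Tuba8 and Trim63 after stretch. The cause of these differences between settings was not tested beyond what each setting removes.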
